A study of Homo sapiens with 2 samples.

Results

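The regions described here are the 906 peaks of a CREB ChIP-seq peak list that lie in the centromere intervals of chromosomes 6, 7 and 10, out of 5285 peaks in all. Chromatin immunoprecipitation followed by sequencing (ChIP-seq) recovers the DNA that an antibody pulls down with its target. The target was CREB, a transcription factor that responds to cAMP and calcium. Both libraries came from NGP, an established human neuroblastoma cell line, collected near confluence, and the labels name no agent: 1 CREB ChIP library and 1 input library of DNA taken without immunoprecipitation. By its design text, the study sought direct targets of signalling from CAMKV, a protein of the calmodulin kinase family, through CREB. The peak list is that of the ChIP library. There was no replicate of either library, so no value has an error between cultures, and no difference between chromosomes or peak groups was tested. A peak was a member when its summit, the position of highest signal, lay at 58 to 60 Mb of chromosome 6, 58 to 61 Mb of chromosome 7 or 40 to 42 Mb of chromosome 10 of genome build hg38. This gave 480, 209 and 217 peaks. The intervals had been chosen because peaks were dense there, so the density itself is a description.

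A centromere is the part of a chromosome on which the kinetochore is built at cell division. Human centromeres consist mainly of alpha satellite, a short sequence repeated head to tail, and groups of these units are themselves repeated as near-identical higher-order blocks that are typical of each chromosome. In hg38 the centromeres are model sequences written from such repeats, so the order of copies along them is not the order in a cell. A short read from such an array often fits many copies about equally well, so the copy to which each peak is assigned is uncertain. CREB is known for binding the cAMP response element, a short palindrome found in many promoters and outside them. The genome sequence was not used here, so neither that element nor the repeat type under any member was examined, and no sequence is printed.

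The peaks lay in a belt on each chromosome. On chromosome 6 they ran from the summit at 58560415 to that at 59829733, a span of 1269 kb with 37.8 peaks per 100 kb. On chromosome 7 they ran from 58198533 to 60807208, over 2609 kb with 8.01 peaks per 100 kb. On chromosome 10 they ran from 40000850 to 41915351, over 1915 kb with 11.3 peaks per 100 kb. That span includes a gap of 352 kb and the 8 peaks after it, described below. The belts of chromosomes 6 and 7 ended well inside the chosen limits. The belt of chromosome 10 was crossed by its lower limit, with the first member 849 bp inside and the nearest peak outside it 6.78 kb beyond.

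**Figure D1:**
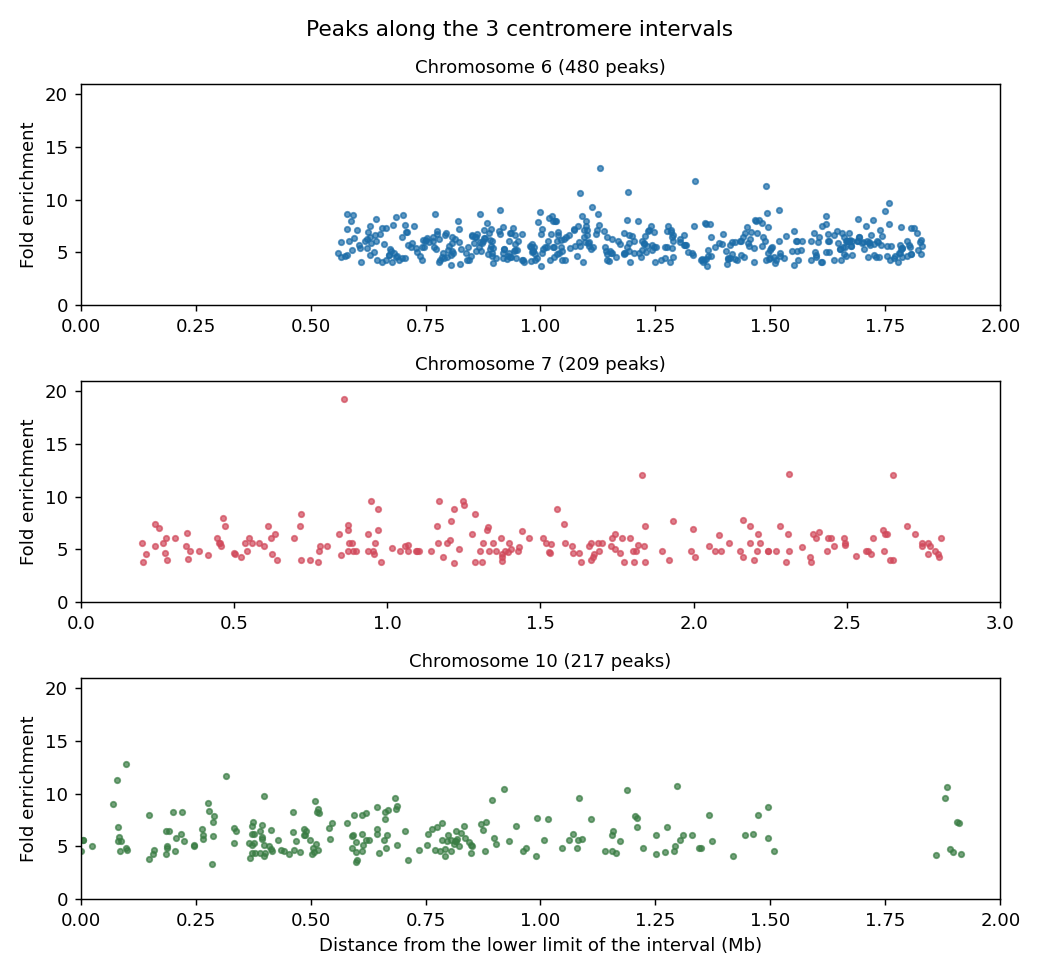
Fold enrichment (vertical axis) of each member summit against its distance in Mb from the lower limit of its interval (horizontal axis), 1 point per peak, for chromosomes 6, 7 and 10. Chromosome 6 holds an unbroken belt, chromosome 7 a thin even one with a point at 19.3, and chromosome 10 a belt that thins towards the right and 8 separate peaks after a gap of 352 kb.

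The ends of the belts were sharp on most sides. On chromosome 6 the nearest peak to the left, chr6:57644326-57644515, had a fold of 3.83 against 4.90 at the first member, chr6:58560384-58560611. The nearest to the right of the interval lay 3044 kb beyond the limit and had a fold of 4.01, against 5.62 at the last member. Chromosome 7 had no peak in the 1 Mb to the left of its interval and 3 in the 1 Mb to the right, the nearest with a fold of 4.82 against 6.08 at the last member. Chromosome 10 had 6 peaks in the 1 Mb to the left. The nearest of these, chr10:39992773-39993303, had a fold of 5.74 and 12 fragments, against 4.56 and 5 fragments at the first member, chr10:40000720-40000891. No peak lay in the 1 Mb to its right, and the next one was 1496 kb beyond the limit.

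None of the 906 members overlapped a RefSeq gene of GRCh38.p14, and 0 were paired with a transcription start site in the authors' deposited table, which reaches 50 kb from each start. In the whole list 24.9% of peaks were paired with a start, and 25.2% of the peaks of chromosomes 1 to 22 and X overlapped a gene. No gene is annotated within any of the 3 belts, so both counts of 0 follow from where the intervals lie. The chromosome 6 interval holds the lncRNA gene LOC124901336 and the pseudogenes LOC100288628 and RBBP4P4, all to the left of the belt, and RBBP4P4 ends 439 kb before it. To the right the nearest annotated gene is the pseudogene PRIM2BP, 452 kb away. The chromosome 7 belt lies between the lncRNA gene LOC102723842, 329.9 kb to its left, and the pseudogene LOC101060796, 185 kb to its right. No annotated gene lies in the chromosome 10 interval, and the nearest to the right of the belt is the pseudogene KSR1P1, at 234 kb. The nearest protein-coding genes were 914 kb (PRIM2, a subunit of DNA primase) and 1713 kb (KHDRBS2, an RNA-binding protein) from the chromosome 6 belt. On chromosome 7 the nearest on the left was ZNF716, a zinc finger gene, at 725 kb. On chromosome 10 it was ZNF33B, also a zinc finger gene, 659 kb to the right.

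Neighbouring summits were closest on chromosome 6 and farthest apart on chromosome 7. The median spacing was 1850 bp on chromosome 6 (quartiles 1010 to 3414 bp, 479 spacings), with an exact binomial 95% interval of the median from 1633 to 2095 bp. It was 8630 bp on chromosome 7 (quartiles 3594 to 18794 bp, 208 spacings, interval 7431 to 9886 bp). It was 3789.5 bp on chromosome 10 (quartiles 1299 to 9918 bp, 216 spacings, interval 3123 to 4903 bp). The intervals treat peaks as independent and describe this list only. Spacing is the inverse of the density for which the stretches were chosen, so it is given as a description.

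Short spacings were common on chromosome 6 and rare on chromosome 7. Spacings under 1 kb made up 24.4% on chromosome 6, 5.29% on chromosome 7 and 17.6% on chromosome 10. Spacings under 5 kb made up 86.8%, 31.2% and 58.3%. Spacings over 20 kb were 0 of 479 on chromosome 6, 48 of 208 on chromosome 7 and 18 of 216 on chromosome 10. The interval of chromosome 20 from 26 to 29 Mb is another dense stretch, whose place relative to the centromere was not examined. Its median spacing was 2596.5 bp over 542 spacings, between those of chromosomes 6 and 10.

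**Figure D2:**
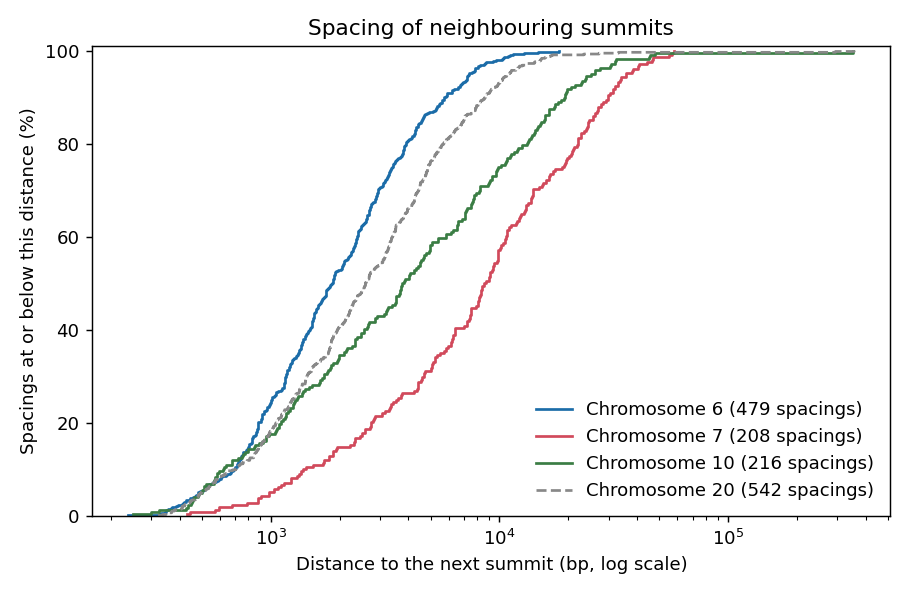
Share of spacings in percent (vertical axis) at or below each distance to the next summit in bp (horizontal axis, log scale), for the 3 member chromosomes and, dashed, the chromosome 20 interval. The curves run from left to right in the order 6, 20, 10 and 7 at their middles, with medians of 1850, 2596.5, 3789.5 and 8630 bp.

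The closest and the widest spacings show how the belts are built. The closest pair of chromosome 6, chr6:58655704-58656083 and chr6:58656250-58656422, had summits 239 bp apart, with folds of 7.35 and 4.11. The closest pair of chromosome 10 was 250.0 bp apart, at chr10:40376010-40376275 and chr10:40376433-40376609, with folds of 6.18 and 5.35. On chromosome 7 the closest pair was 431 bp apart, at chr7:60493558-60493758 and chr7:60494118-60494416, with folds of 5.62 and 5.40. Runs of summits each within 1 kb of the next reached 5 peaks on chromosome 6 (chr6:58918224-58921171, folds 4.51 to 7.40) and 5 on chromosome 10 (chr10:40370949-40374721, folds 4.42 to 7.35). On chromosome 7 the longest run had 3 peaks, at chr7:59838970-59840760. Runs of 3 or more numbered 23, 1 and 5 on chromosomes 6, 7 and 10.

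The widest spacing was 18.3 kb on chromosome 6 and 57.9 kb on chromosome 7, so both belts were continuous at the scale of 100 kb. Counted from the first summit, all 12 full windows of 100 kb on chromosome 6 held peaks (31 to 49, median 36), as did all 26 on chromosome 7 (4 to 14, median 8). On chromosome 10 the count ran from 0 to 23, with 2 of 19 windows empty. Spacing varied about as much as its mean on chromosomes 6 and 7, with coefficients of variation of 0.903 and 0.947. On chromosome 10 it was 2.82, with the 352 kb gap included.

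The belt of chromosome 10 changed along its length. From 40 to 40.5 Mb it held 81 peaks with a median spacing of 2039.5 bp, and from 40.5 to 41 Mb 86 peaks at 3184 bp. From 41 to 41.5 Mb it held 41 peaks at 9579.5 bp. The median fold was 5.64, 5.69 and 5.81 in these segments, so the peaks became sparser without a lower fold. The expected background, explained below, was 0.632 fragments at the median in the denser segments and 0.336 in the sparser one. In the same kind of segment, median spacing on chromosome 6 ran from 1726 to 1949.5 bp and on chromosome 7 from 6958 to 9865 bp.

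The distances between all pairs of summits up to 10 kb apart were counted in bins. Above 500 bp they were spread nearly evenly on chromosome 6, and counts on chromosomes 7 and 10 were too low to judge. On chromosome 6, 1749 such pairs gave 77 to 100 pairs in each of the 19 bins of 500 bp above the first, with a median of 90. The first bin, under 500 bp, held 26. Chromosome 10, with 373 pairs, gave 12 to 28 per bin and 11 in the first, and chromosome 7, with 154 pairs, gave 4 to 12 and 2 in the first. Fewer pairs under 500 bp than in the other bins were thus seen on each chromosome. Peaks were at least 156 bp wide, and overlapping signal is reported as a single peak, which limits how close summits can be. Whether this has a part in the low first bin was not tested.

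Repeat length was looked for by folding these distances on each period from 150 to 200 bp, the scale of an alpha-satellite unit, whose usual length is about 171 bp. The resultant length measures how well the distances line up with a period, from 0 for none to 1 for all. On chromosome 6 it was highest at 172 bp, with 0.0607 against a median of 0.0218 over the periods of that range, and 173 and 171 bp came next. On chromosome 10 the highest was 161 bp (0.0998), followed by 171 bp (0.0971) and 170 bp (0.0961). On chromosome 7 it was 167 bp (0.179) over few pairs. All of these values are small, so most distances did not line up with any period. With neighbouring summits alone the best periods were 172, 166 and 170 bp on chromosomes 6, 7 and 10, and with pairs up to 20 kb 173, 150 and 170 bp. None of the 3 first values held within 2 bp with peak midpoints, or among peaks of −log10 q of 5 or more. Over longer periods of 500 to 4000 bp, the range of higher-order blocks, the highest values stood at or near the upper end. They were at 3893, 3934 and 4000 bp, with resultant lengths of 0.123, 0.217 and 0.180. Distances spread evenly up to a limit of 10 kb give raised values at such long periods by themselves. These maxima cannot show a match with blocks. A repeat length was therefore not resolved.

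**Figure D3:**
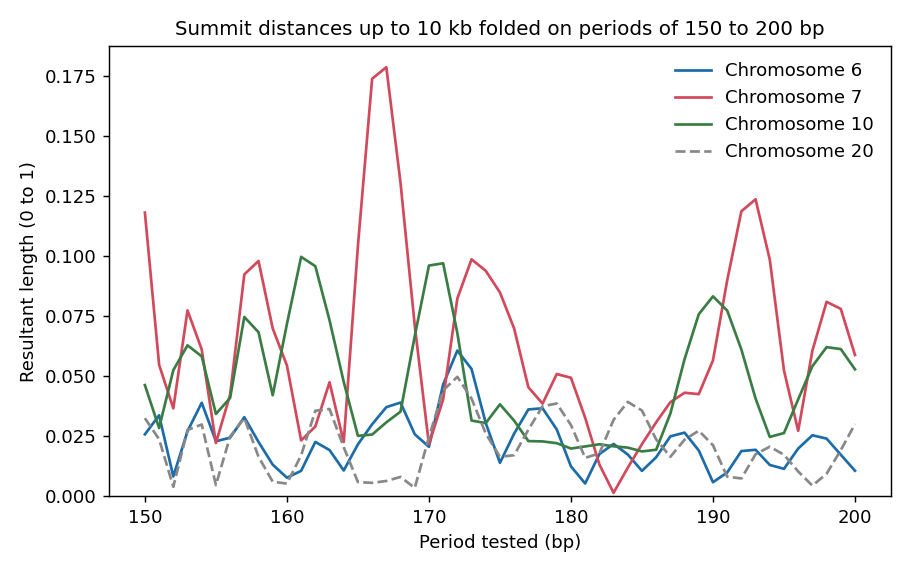
Resultant length (vertical axis, possible range 0 to 1) of summit distances up to 10 kb against the period on which they were folded, in bp (horizontal axis). Chromosome 6 and the dashed chromosome 20 curve both peak at 172 bp but at 0.0607 and 0.0498, and chromosome 7 has several maxima from 154 pairs.

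Fold enrichment in the list is the authors' ratio of ChIP signal to expected background at the summit. The values match a ratio with 1 added to both counts, so each fold is lower than the plain ratio of the counts. The −log10 q is the significance as the peak caller gave it. Members had a median fold of 5.73 on chromosome 6 (quartiles 4.90 to 6.66), 5.32 on chromosome 7 (4.81 to 6.08) and 5.65 on chromosome 10 (4.82 to 6.89). The medians differ little beside these quartiles. The median −log10 q was 4.11, 3.50 and 4.46, with quartiles of 2.82 to 5.69, 2.82 to 4.72 and 3.03 to 6.89. A fold of 5 or more was found in 67.7% of members, against 53.2% of the whole list, which includes them. By chromosome this share of members was 70.8%, 57.4% and 70.5%. It was 73.3% in the chromosome 20 interval. Among peaks of chromosomes 1 to 22 and X outside all these intervals it was 45.3%. A −log10 q of 5 was reached by 32.1% of members on chromosome 6, 23.9% on chromosome 7 and 41.5% on chromosome 10, against 30.3% of the whole list.

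High folds were few. A fold of 10 was reached by 16 of 906 members (1.77%, exact Clopper-Pearson 95% interval 1.01 to 2.85), against 4.09% of the whole list. They were 5 peaks of chromosome 6, 4 of chromosome 7 and 7 of chromosome 10. The 95% interval treats peaks as independent and is not a test against the whole list. Among the 50 strongest peaks of the list by fold, 1 was a member, while members made up 17.1% of the whole list.

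Compared with the peaks of the same 3 chromosomes outside the intervals, members were wider and had higher folds at the median. Outside, 302 peaks had a median fold of 4.80 and a median width of 207 bp, against 5.62 and 261 bp for the members. A fold of 5 or more was found in 34.8% of the peaks outside, and a fold of 10 or more in 4.97%. In the chromosome 20 interval the 543 peaks had a median fold of 5.62 and a median width of 280 bp, close to the values of chromosomes 6 and 10. The other 3489 peaks of chromosomes 1 to 22 and X had medians of 4.82 and 222 bp. Peaks of 1 library are not replicates of a condition, so these medians are set side by side without a test.

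The median width was 275.5 bp on chromosome 6 (quartiles 204 to 417), 235 bp on chromosome 7 (183 to 317) and 266 bp on chromosome 10 (199 to 399). Peaks of 500 bp or more made up 14.6%, 3.35% and 16.1%, and 14.9% in the chromosome 20 interval. This share was not counted over the whole list, whose width had a median of 236 bp and quartiles of 185 to 332 bp. It is therefore a description of the members only. The members together covered 12.6% of the chromosome 6 span, 2.12% of that of chromosome 7 and 3.81% of that of chromosome 10. Wider peaks had higher folds within each chromosome. The 120 widest peaks of chromosome 6, the 52 widest of chromosome 7 and the 54 widest of chromosome 10 had median folds of 6.45, 6.08 and 6.61, and as many of the narrowest had 5.17, 4.82 and 5.34. Spearman's rho of width with fold was 0.324, 0.285 and 0.244 over the 480, 209 and 217 peaks, which share a library and partly the same reads. The summit lay near the middle of the peak, at a median of 46.8%, 46.8% and 47.1% of its width.

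**Figure D4:**
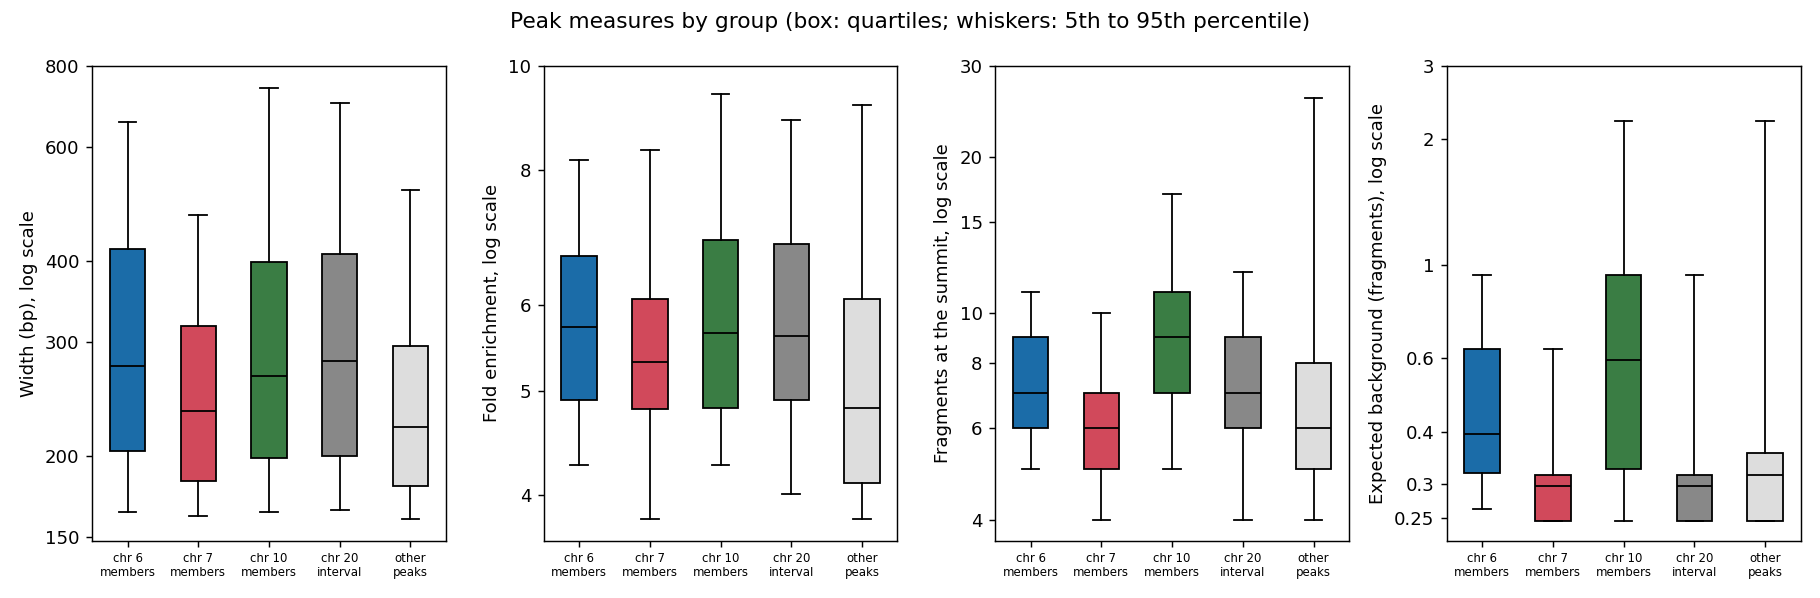
Width, fold enrichment, fragments at the summit and expected background (vertical axes, log scale) of the members by chromosome, of the chromosome 20 interval and of the other peaks of chromosomes 1 to 22 and X. Boxes are quartiles with the median as a line, whiskers run from the 5th to the 95th percentile, and the chromosome 10 members have the highest median background, 0.594 fragments.

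Fold and p-value together give back the fragment count at a summit, which could be done for 906 of 906 members. The median was 7 fragments on chromosome 6 (range 4 to 16), 6 on chromosome 7 (4 to 24) and 9 on chromosome 10 (4 to 150). Summits with at most 9 fragments made up 86.0%, 92.8% and 56.7%, against 79.1% of the whole list. Over all members the share was 80.6%, near that of the list, whose median was 6 fragments. At such counts the interval is wide, as 7 fragments have an exact Poisson 95% interval of 2.81 to 14.4. Intervals cover counting error only. They take no account of duplicate reads, whose handling is not given, or of the choice of summits by their high signal.

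The expected background at the summit differed more between the chromosomes than the fold did. It is the fragment count that the peak caller expected there, and its lowest value in the list, 0.246, was also its commonest (counted within 0.002). On chromosome 7, 95 of 209 members (45.5%) stood at that lowest value and the median was 0.297. On chromosome 6, 15 of 480 (3.12%) did, with a median of 0.396. On chromosome 10, 26 of 217 (12.0%) did, with a median of 0.594, and 46 members (21.2%) had a background over 1 fragment against 8 (1.67%) and 2 (0.957%) on chromosomes 6 and 7, and 11% of the whole list. The share at the lowest value was 34.2% in the whole list and 39.1% among the other peaks of chromosomes 1 to 22 and X. It was 51.0% among peaks outside the intervals on the same chromosomes and 47.9% in the chromosome 20 interval. Chromosomes 6 and 10 thus had a lower share at the lowest background than chromosome 7 and these groups, and whether the background has a part in their peak density was not tested.

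Backgrounds fell on steps. A further common level was 0.316 fragments, the background of 18.9% of the whole list. It held 50 members of chromosome 6 (10.4%), 58 of chromosome 7 (27.8%) and 18 of chromosome 10 (8.29%). At 0.632, which is that level doubled, stood 78 (16.25%), 11 (5.26%) and 21 (9.68%), against 6.89% of the whole list. In all, 337 of 906 members (37.2%) had a background within 0.01 steps of a whole multiple of 0.316, against 36.7% of the whole list. Spearman's rho of fold with background was −0.195, −0.168 and −0.267 on chromosomes 6, 7 and 10. With fragments at the summit, rho of fold was 0.798, 0.877 and 0.441. Fragments are above the line in the fold and the background is below it, so both are linked to the fold by construction. Why the sign for background was negative was not tested.

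**Figure D5:**
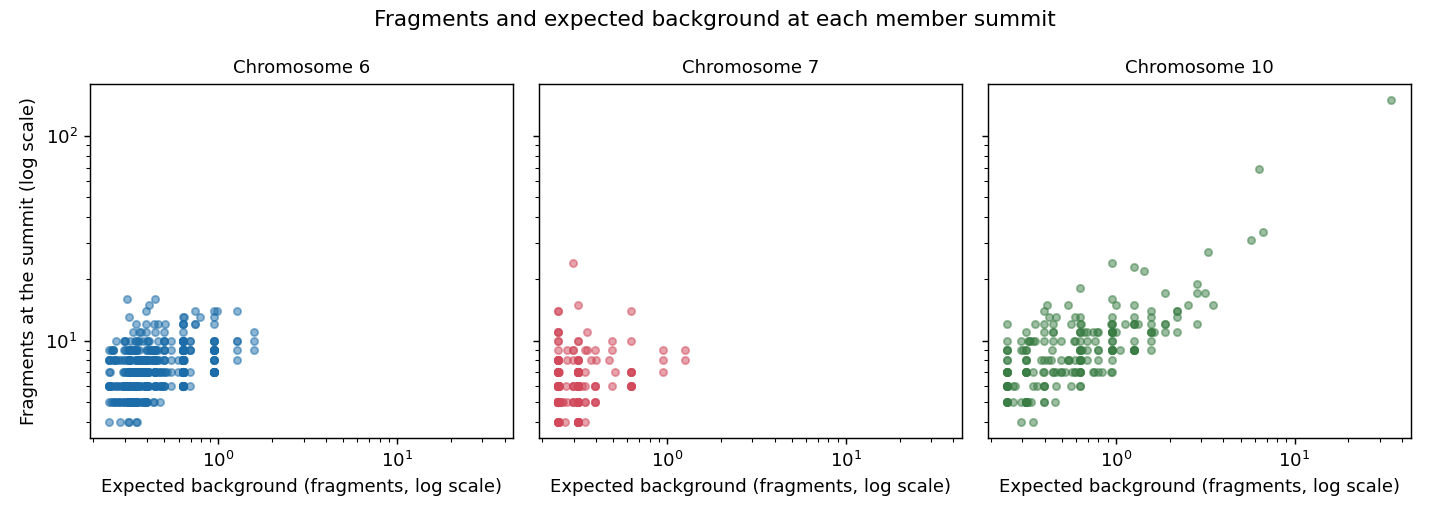
Fragments at the summit (vertical axis, log scale) against the expected background in fragments (horizontal axis, log scale), 1 point per member, for chromosomes 6, 7 and 10. Columns of points stand at repeated background levels such as 0.316 and 0.632, and only chromosome 10 has members with a background over 5 fragments, 4 in number.

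The strongest member was on chromosome 7. The peak chr7:58860545-58860867 had a fold of 19.3, a −log10 q of 33.5 and 24 fragments, with a 95% interval of 15.4 to 35.7. Its background was 0.297, and it ranked 34 in the whole list by fold. The next on that chromosome were chr7:60310763-60310986 with a fold of 12.2 and 15 fragments, and chr7:59829464-59829820 and chr7:60649421-60649590, both with a fold of 12.0 and 14 fragments. The fifth, chr7:58946747-58947339, had 9.63 with 11 fragments, a value shared by 2 other members of chromosome 7. The first and the fifth lay 86.6 kb apart.

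On chromosome 6 the folds of the leading peaks were closer together. The peak chr6:59129166-59130618 had a fold of 13.0 and 16 fragments, and at 1453 bp it was also the widest member of all. After it came chr6:59336458-59337100 with a fold of 11.8, chr6:59489571-59490160 with 11.3, chr6:59189128-59189363 with 10.7 and chr6:59086021-59086321 with 10.6. They held 16, 15, 14 and 13 fragments, and the 95% interval of the last count, 6.92 to 22.2, holds that of the first peak. The weakest member of chromosome 6 by q, chr6:59000615-59000867, had a −log10 q of 1.35 and 4 fragments.

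On chromosome 10 the highest fold was 12.8, at chr10:40097783-40097981, where 24 fragments stood against 0.949 expected. This is the same number of fragments as at the strongest chromosome 7 peak, over a higher background. Then came chr10:40314897-40315520 with a fold of 11.6 and 18 fragments, chr10:40078232-40078704 with 11.3 and 15, chr10:41295865-41296185 with 10.7 and 14, and chr10:41883101-41883524 with 10.6 and 23. The widest member there, chr10:40507127-40508235, spanned 1109 bp with a fold of only 4.49, over a background of 1.90. The weakest members by q on chromosomes 7 and 10 each held 4 fragments at a fold of 3.71.

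The gap of 352 kb on chromosome 10 set apart 8 peaks at its right end, from chr10:41859901 to 41915531. They were described after their values were seen. The first, chr10:41859901-41860324, held 150 fragments (95% interval 127 to 176), the most of any member, over a background of 34.8, also the highest, so that its fold was only 4.22 while its −log10 q was 41.9. The second, chr10:41879278-41879656, held 69 fragments (53.7 to 87.3) over 6.32, with a fold of 9.56 and a −log10 q of 41.4. The third was the peak of fold 10.6 named above, with 23 fragments over 1.26. The other 5 held 5 to 13 fragments with folds of 4.30 to 7.35. In the belt before the gap, 209 peaks held 4 to 34 fragments over backgrounds of 0.246 to 6.64. The pair with the highest −log10 q of all members thus lay outside the main belt. The high background was that of its first summits, as the other 5 peaks had 0.396 to 0.949.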

How the data were processed

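Bowtie2, MACS2 and build hg38 are listed in the submitters' processing notes. Their versions and settings, and how reads with several alignments or duplicates were handled, are not given in the sources used for this text. The peak list deposited by the authors holds, per peak, the fold enrichment as a ratio, the −log10 p and −log10 q at the summit, and a score, which is 10 times the −log10 q without its decimals. All are the authors' values and serve only to describe and rank peaks within the list. Peaks were called on the 1 ChIP library. Depth is known only as fragments at summits: fold was read as (pileup + 1) / (background + 1), and p as the upper tail of a Poisson distribution. Whole fragments then matched the −log10 p to 0.001 (to a relative 1e-05 above 100) at 5285 of 5285 peaks. This and the period search were tried on simulated data. The simulated summits all followed a planted period, a simpler setting than these belts. The trial therefore does not show what the period search would miss here. Spacing is the distance between neighbouring summits. Coordinates are 1-based. Python 3.11.15, numpy 2.4.6, scipy 1.17.1 and matplotlib 3.10.9 were used. The text names, per chromosome, the 5 members of highest fold, the widest, the weakest by q, the closest and widest spacing and the outermost members. Any other peak was picked with its values in view. The members were chosen with earlier results of these data known. Alternatives were a stricter q, a fold minimum, other limits, midpoints, merging and other pair distances. Statistical tests were not run, since there is 1 sample per group.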

Additional observations from a re-analysis of the deposited data

How the results depend on the processing

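Each value was recomputed under the alternatives, 95 in all, and 47 stayed within the 95% interval of the median, within 1.5 times the count or within 2 bp of the period. No paired analysis was possible because each group has 1 library. Moving the interval limits inward by 250 kb or outward by 1 Mb, using midpoints for spacing, merging summits closer than 500 bp, and leaving out the 8 chromosome 10 peaks after its widest gap (chosen after seeing the data) moved no count, spacing, width, fold or q past these bounds. Values below are in the order of chromosomes 6, 7 and 10. With a −log10 q of at least 5 there were 154, 50 and 90 peaks, with median spacings of 4688, 25357 and 11637 bp, widths of 348, 290.5 and 338 bp, folds of 7.12, 7.22 and 7.29 and −log10 q of 6.59, 6.91 and 7.40. With a fold of 5 or more, chromosome 7 kept 120 peaks, the spacings were 2575, 14472 and 5071.5 bp, the folds 6.13, 6.08 and 6.23, the −log10 q 4.78, 4.72 and 5.47, and the widths on chromosomes 6 and 7 302 and 259 bp. Fewer peaks lengthen the spacing, and a minimum raises the median it is set on. The order of the 3 spacings was the same in each of these settings, while that of the folds was not: chromosome 10 had the highest median under both minimums and chromosome 6 without them. The period within 150 to 200 bp became 154, 150 and 173 bp with midpoints and 151, 179 and 152 bp with a −log10 q of at least 5. With pairs to 20 kb it was 150 bp on chromosome 7 and 170 bp on chromosome 10, and with neighbouring summits only 170 bp on chromosome 10. The period within 500 to 4000 bp became 3608, 937 and 2066 bp with pairs to 20 kb, 3883, 3914 and 3994 bp with midpoints, and 3977, 990 and 3680 bp with a −log10 q of at least 5. The long periods cannot be read as repeat lengths, as said above, and the cause of the changes was not tested. With fold taken as pileup / background, fragments were recovered for 3, 0 and 0 peaks. With few fragments per summit and a single library, spacing describes the called peaks, and sites below the authors' threshold are not seen.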
